A study of Mus musculus with 18 samples.

Results

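The 10 integrin subunit genes described here were *Itgam*, *Itgax*, *Itgal*, *Itgb2*, *Itga4*, *Itga6*, *Itgb1*, *Itgb7*, *Itgav* and *Itgb5*, taken by symbol from the 16314 gene symbols of the count table. All 10 were in the table and all 10 passed the expression filter, which kept 12021 genes. Bone marrow from the femurs of *Prep*-/- mice and of their heterozygous *Prep*+/- littermates, on a C57BL6/J background, was cultured for 7 days with 50 ng/ml M-CSF, a growth factor that turns marrow precursors into macrophages (bone marrow-derived macrophages, BMDMs). M0 cells received no stimulus, M1 cells received the bacterial product LPS at 50 ng/ml, and M2 cells received the cytokines IL-4 and IL-13 at 20 ng/ml each. Either stimulus lasted 24 h. Each genotype in each state had 3 replicates, so that 18 bulk RNA-seq libraries in 6 groups were compared. *Prep* encodes prolyl endopeptidase, a serine peptidase that cleaves short peptides after proline, and its allele is lost in the whole body of the knockout. The control cells carry 1 null allele in every state, so that all fold changes between genotypes are against heterozygous and not wild-type cells.

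Integrins are adhesion receptors made of 1 α and 1 β chain, and the pairing sets which ligand is bound. On macrophages, the β2 chain pairs with the leukocyte α chains CD11a, CD11b and CD11c, which bind ICAMs, fibrinogen and complement fragments. The α4 chain pairs with β1 or β7 and binds VCAM-1, MAdCAM-1 and fibronectin, α6 with β1 binds laminin, and αv with β5 binds vitronectin and other RGD ligands. M1 and M2 are the usual names for macrophages driven by bacterial products and by type 2 cytokines, and CD11c is widely used as a marker of dendritic cells and of some activated macrophages.

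The libraries held 19068237 to 22598279 counts. Levels are given in CPM, the count as a share of the TMM-scaled library total, which adjusts for differences in library composition. *Prep* itself lay between 26.0 and 42.5 CPM in the 9 *Prep*+/- libraries and between 1.48 and 3.22 CPM in the 9 *Prep*-/- libraries. A pair of libraries stood apart from their groups. The root mean square deviation from the group mean over all genes was 0.454 on the log2 scale in *Prep*-/- M2 replicate 3 and 0.396 in *Prep*-/- M0 replicate 3, against 0.162 to 0.306 in the other libraries. The 7 macrophage markers summed to 18470 to 21969 CPM in *Prep*+/- M0 and 30017 to 47584 CPM in *Prep*-/- M0, to 44229 to 45909 and 29607 to 35290 CPM in M1, and to 9662 to 11794 and 13485 to 19391 CPM in M2. Those sums separated the genotypes in every state, but *Lyz2* made up most of each. It was 14850 to 18710 CPM in *Prep*+/- M0 and 25299 to 39295 CPM in *Prep*-/- M0. In M1, *Lyz2* and *Cd14* were lower in *Prep*-/- cells. *Cd68* (855 to 1009 against 1096 to 1477 CPM) and *Mertk* (27.9 to 45.7 against 73.4 to 102 CPM) were higher there, and the other markers overlapped. *Cd68* overlapped in M0, and *Adgre1*, *Mertk*, *Fcgr1* and *Cd14* overlapped in M2. Of the markers of other cells, the 8 neutrophil and granulocyte precursor genes summed to 21.6 to 32.5 CPM in *Prep*+/- against 46.5 to 109.6 CPM in *Prep*-/- cells in M0, to 67.1 to 127 against 41.1 to 57.2 CPM in M1, and to 18.4 to 23.9 against 23.6 to 35.2 CPM in M2, where they overlapped. *S100a8*, *S100a9*, *Ltf* and *Camp* made up nearly all of these sums. *Mpo*, *Elane*, *Ly6g* and *Retnlg* reached no more than 1.1 CPM, and *Mpo* overlapped between genotypes in every state. The 3 B cell genes in the table summed to 3.01 to 4.79 against 8.66 to 11.5 CPM in M0, to 2.06 to 2.59 against 5.09 to 6.96 CPM in M1, and overlapped in M2. *Cd79b* made up nearly all of these sums, and *Cd79a* and *Ms4a1* reached no more than 0.168 CPM in any library. The 5 platelet and megakaryocyte genes, with *Pf4* making up nearly all of the sum, summed to 856 to 1471 against 264 to 383 CPM in M1, and overlapped in M0 and M2. In M0 the sums were 260 to 321 CPM in *Prep*+/- and 136, 134 and 356 CPM in *Prep*-/- replicates 1 to 3. The 5 stromal genes reached 20.6 CPM and the 6 dendritic cell genes 2.83 CPM. Stromal sums differed within groups, with 17.1, 12.5 and 0.738 CPM in *Prep*-/- M0 and 0.426, 0.0839 and 13.6 CPM in *Prep*+/- M2 (replicates 1 to 3). Erythroid, T and NK cell, and mast cell and basophil genes in the table reached no more than 0.237 CPM. The part of these differences in the results was not tested. In bulk libraries, fewer cells of a type and less RNA per cell cannot be told apart. The replicates are described as biological, but no label ties a replicate number to an animal, so that p-values measure the spread between these libraries only.

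The genes lie on 6 chromosomes in GRCm39. *Itgam* (chr7:127661808-127717753, plus strand) ends 10914 bases before *Itgax* (chr7:127728668-127749829, plus strand), and *Itgal* (chr7:126895432-126934320, plus strand) is on the same chromosome. *Itga6* (chr2:71575960-71689757), *Itga4* (chr2:79085660-79163467) and *Itgav* (chr2:83554403-83637260) are on the plus strand of chromosome 2. *Itgb2* is at chr10:77366086-77401542, *Itgb1* at chr8:129411876-129460618 and *Itgb5* at chr16:33649988-33771137, all on the plus strand, and *Itgb7* is at chr15:102124429-102140379 on the minus strand. All are protein-coding, and the counts are per gene, so exons, introns and UTRs were not told apart. *Itgam* overlaps a protein-coding gene model on its own strand, *Gm49368*, and *Itga6* overlaps 4 models on its own strand and 3 on the other. *Itga4* overlaps *Cerkl* on the opposite strand, where transcripts of the genes share up to 3484 bases, and *Itgav* and *Itgb5* also overlap models on the opposite strand. *Gm49368* shares 3454 bases with *Itgam* at 99.9% identity. Transcripts of *Itgb5* share stretches of 1029 to 1468 bases, at 90.5% to 99.0% identity, with those of 73 other genes. The libraries were made with a kit that keeps the strand, but neither the strand option used in counting nor the treatment of shared reads is given in the sources used here, so that the levels of these 5 genes carry that uncertainty.

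*Itgam* and *Itgax* are shown by the sequence before their starts, because they are close neighbours whose mRNA moved in different ways with polarization. The RefSeq promoter table (GRCm38.p6) held 7 of the 10 genes. *Itgal*, *Itga6* and *Itgb2* were not matched. The 250 bases before the start are printed 5′ to 3′. Capitals mark matches, on either strand, to GAGGAA (a pattern recognised by PU.1, a transcription factor of myeloid cells), TTCNNNNGAA (the pattern bound by STAT6, which acts downstream of IL-4 and IL-13) or TGANTCA (the pattern of AP-1). Other forms of the PU.1 site were not searched.
Itgam, chr7:128062390-128062639, plus strand: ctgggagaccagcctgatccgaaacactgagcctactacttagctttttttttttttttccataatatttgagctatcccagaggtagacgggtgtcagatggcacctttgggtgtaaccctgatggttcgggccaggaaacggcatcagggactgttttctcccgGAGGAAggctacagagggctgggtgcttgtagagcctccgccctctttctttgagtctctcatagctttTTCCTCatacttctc
Itgax, chr7:128129300-128129549, plus strand: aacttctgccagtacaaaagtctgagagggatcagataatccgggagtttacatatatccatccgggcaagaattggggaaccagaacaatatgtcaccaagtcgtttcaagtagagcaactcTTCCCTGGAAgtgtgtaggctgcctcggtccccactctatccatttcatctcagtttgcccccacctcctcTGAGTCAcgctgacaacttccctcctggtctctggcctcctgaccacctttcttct
The *Itgam* window held 2 GAGGAA matches, which began 84 and 15 bases before the start, the second of them on the minus strand. The *Itgax* window held no GAGGAA match, a STAT6 pattern that began 127 bases before the start and an AP-1 pattern that began 56 bases before it. None of these matches overlapped another. Of the other matched genes, *Itgav* also held 2 GAGGAA matches and *Itgb1* held 1, while *Itga4*, *Itgb7* and *Itgb5* held no match to any of these patterns. Over the 32851 promoters of the table, 23.3% held GAGGAA, 5.85% held TTCNNNNGAA and 6.75% held TGANTCA in the same window, so that none is rare. Binding was not measured here.

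**Figure D1:**
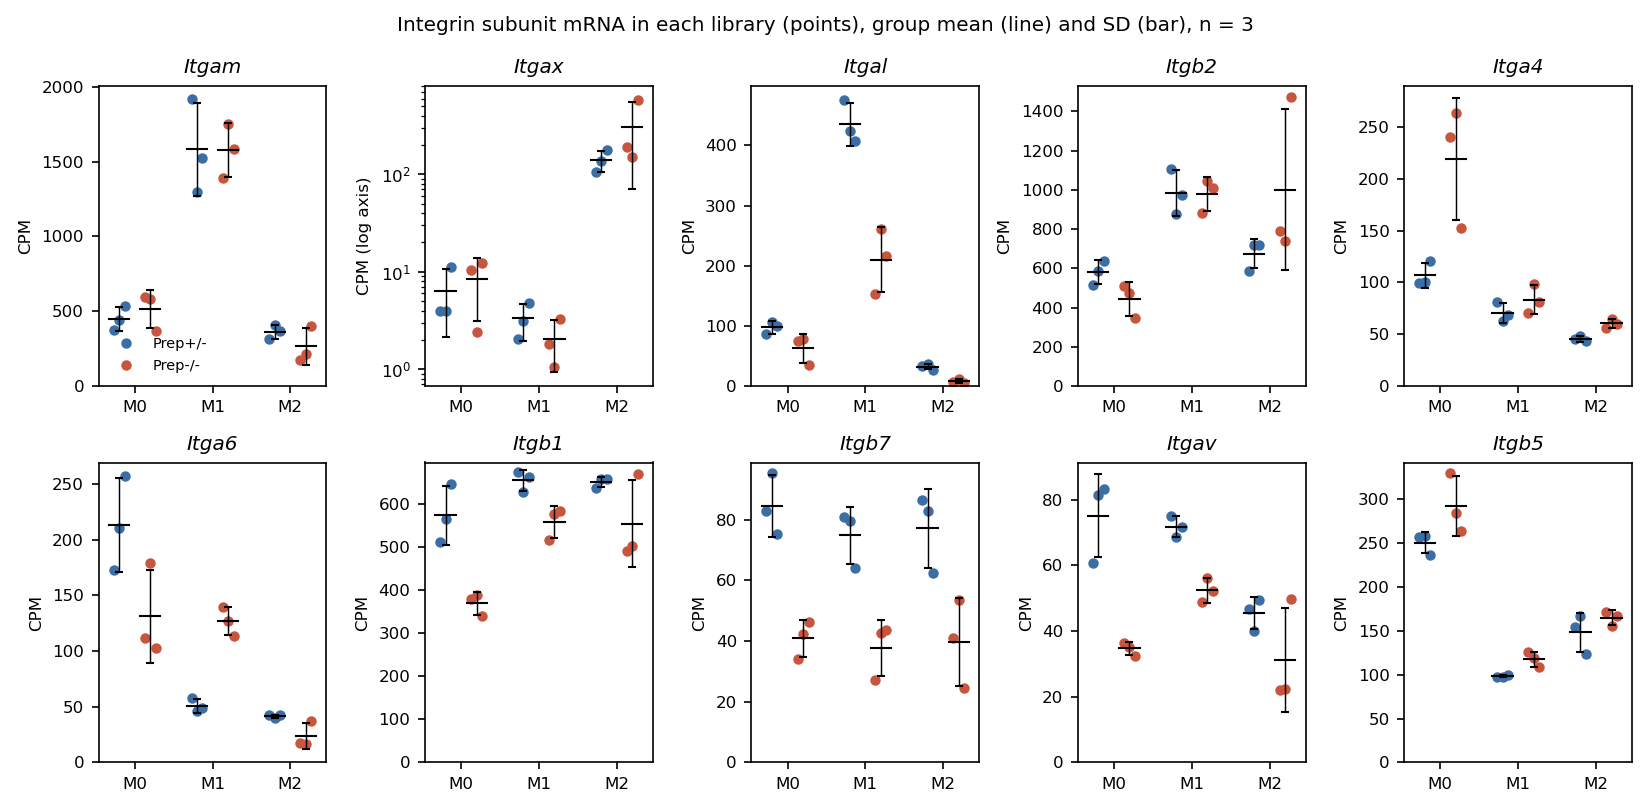
Level of each subunit in CPM (vertical axis, log axis for *Itgax* and linear from 0 for the others) in M0, M1 and M2, with *Prep*+/- in blue and *Prep*-/- in red. Points are libraries, lines are means and bars are SDs of 3 libraries. *Itgb7* separates the genotypes in every state, and *Itgax* is above 100 CPM in the M2 libraries alone.

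*Itgb7*, which encodes the β7 chain that pairs with α4 or αE in gut-homing leukocytes, was lower in *Prep*-/- than in *Prep*+/- BMDMs in all 3 states. In M0 it was 83.0, 95.4 and 75.3 CPM in *Prep*+/- and 34.1, 42.3 and 46.3 CPM in *Prep*-/- libraries. The M1 libraries had 80.8, 79.7 and 64.2 CPM against 27.1, 42.7 and 43.6 CPM. The M2 libraries had 86.4, 83.0 and 62.4 CPM against 41.0, 53.7 and 24.6 CPM. No *Prep*-/- library reached the lowest *Prep*+/- library of its state. The log2 fold change was -1.05 (SE 0.23, edgeR adjusted p = 0.00164) in M0, -0.99 (SE 0.24, edgeR adjusted p = 0.00476) in M1 and -0.96 (SE 0.23, edgeR adjusted p = 0.007) in M2. These calls held under every alternative run, leaving out each library included. Polarization did not move it past the test in either genotype, and its group means ran from 74.9 to 84.6 CPM in *Prep*+/- and from 37.8 to 40.9 CPM in *Prep*-/- cells.

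*Itgal*, which encodes CD11a, the α chain of the ICAM receptor of leukocytes, had the largest knockout effect of the 10 genes in M2. It was 32.4, 36.7 and 27.2 CPM in *Prep*+/- M2 and 6.14, 11.3 and 5.08 CPM in *Prep*-/- M2 libraries, and the groups did not overlap. The log2 fold change was -2.10 (SE 0.31, edgeR adjusted p = 1.63e-04). In M1 the libraries had 475, 424 and 407 CPM in *Prep*+/- and 152, 261 and 217 CPM in *Prep*-/- cells, again without overlap, with a log2 fold change of -1.05 (SE 0.28, edgeR adjusted p = 0.00942). Leaving out *Prep*-/- M1 replicate 1, the lowest library of its group, ended that call (log2 fold change -0.87, edgeR adjusted p = 0.0587). In M0 the values were 86.0, 107 and 99.4 CPM against 74.7, 78.5 and 34.5 CPM. These groups did not overlap either, but the difference missed the threshold (log2 fold change -0.64, edgeR adjusted p = 0.0726), and it was -0.35 (edgeR adjusted p = 0.257) without *Prep*-/- M0 replicate 3, the library that stood apart. It passed without *Prep*-/- M0 replicate 2 (-0.86, edgeR adjusted p = 0.0376).

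*Itgam*, which encodes CD11b, the α chain of complement receptor 3 and a general myeloid marker, did not pass the test between genotypes in any state. The M1 libraries had 1917, 1299.7 and 1527 CPM in *Prep*+/- and 1393, 1753 and 1587 CPM in *Prep*-/- cells, with means of 1581 ± 312 and 1578 ± 180.1 CPM (SD, n = 3). In M0 the values were 374, 439 and 532 CPM against 596, 584 and 368 CPM, and the groups overlapped. In M2 they were 315, 409 and 364 CPM against 174, 216 and 404 CPM (log2 fold change -0.45, edgeR adjusted p = 0.222). *Prep*-/- M2 replicate 3, the library that stood apart, lay within the *Prep*+/- range, and the other *Prep*-/- libraries lay below it. Without that library *Itgam* was called lower in M2 (log2 fold change -0.89, edgeR adjusted p = 0.0056).

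*Itgax*, which encodes CD11c, was high in M2 alone, and its difference between the genotypes there rested on a single library. It was 107, 137 and 176 CPM in *Prep*+/- M2 and 192, 152 and 585 CPM in *Prep*-/- M2. *Prep*-/- replicate 3 was more than 3 times as high as the next library, and the lowest *Prep*-/- library lay inside the *Prep*+/- range. The log2 fold change was 1.15 (SE 0.54, edgeR adjusted p = 0.13) with it and 0.30 (edgeR adjusted p = 0.669) without it. In M0 the values were 3.92, 3.95 and 11.2 CPM against 10.5, 2.43 and 12.4 CPM, and in M1 they were 2.05, 3.15 and 4.79 CPM against 1.82, 1.06 and 3.26 CPM. The genotypes overlapped in both states. The 6 defining dendritic cell markers summed to 0.839 to 2.18 CPM in *Prep*+/- M2 and 1.10 to 2.83 CPM in *Prep*-/- M2. Their M0 sums were 0.160 to 0.456 CPM in *Prep*+/-, below those of M2, and 0.877 to 1.26 CPM in *Prep*-/-, overlapping those of M2. *Itgax* was above 100 CPM in every M2 library, and which cells gave it was not tested.

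*Itgb2*, which encodes CD18, the chain that CD11a, CD11b and CD11c share, did not pass the test between genotypes. In M2 it was 588, 717 and 719 CPM in *Prep*+/- and 788, 738 and 1474 CPM in *Prep*-/- libraries, and every *Prep*-/- library was higher (log2 fold change 0.57, edgeR adjusted p = 0.0654). Without replicate 3 the difference was 0.18 (edgeR adjusted p = 0.425), and it passed without *Prep*-/- M2 replicate 1 (0.71, edgeR adjusted p = 0.0449) or replicate 2 (0.75, edgeR adjusted p = 0.0194). In M0 it was 515, 586 and 637 CPM against 508, 476 and 346 CPM, lower in every *Prep*-/- library (log2 fold change -0.39, edgeR adjusted p = 0.15). In M1 it was 1108, 875 and 976 CPM against 884, 1045 and 1011 CPM, and the ranges overlapped.

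*Itga4*, which encodes the α4 chain of the VCAM-1 receptor, was higher with the knockout in M0. It was 99.0, 101 and 120.4 CPM in *Prep*+/- and 241, 264 and 152 CPM in *Prep*-/- M0 libraries, without overlap, with a log2 fold change of 1.04 (SE 0.17, edgeR adjusted p = 1.48e-04). *Prep*-/- replicate 3, which stood apart, was the lowest of its group, and over all alternatives the log2 fold change ran from 0.86 to 1.24 and stayed past the threshold. In M1 the values were 81.4, 62.4 and 68.8 CPM against 70.5, 98.2 and 81.4 CPM, and the ranges overlapped (log2 fold change 0.23, edgeR adjusted p = 0.299). In M2 the values were 45.3, 48.4 and 43.0 CPM against 56.1, 64.9 and 60.1 CPM. All the *Prep*-/- libraries were higher there, but the difference missed the threshold (log2 fold change 0.41, edgeR adjusted p = 0.0985).

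*Itga6*, which encodes the laminin-binding α6 chain, was the 1 gene of the 10 called in opposite directions in different states. In M1 it was 57.6, 45.9 and 48.4 CPM in *Prep*+/- and 139, 127 and 114 CPM in *Prep*-/- libraries, and the groups did not overlap. The log2 fold change was 1.32 (SE 0.26, edgeR adjusted p = 0.00127) and the call held under every alternative. In M0 it was 172, 210.4 and 257 CPM against 112, 179 and 103 CPM, with an overlap of the ranges and a log2 fold change of -0.70 (SE 0.25, edgeR adjusted p = 0.0307). In M2 it was 42.2, 39.7 and 42.3 CPM against 17.7, 16.7 and 36.9 CPM, lower in every *Prep*-/- library, with a log2 fold change of -0.80 (SE 0.26, edgeR adjusted p = 0.0338). Both of these calls are near the threshold. The M0 call was lost with *Prep*+/- M0 replicate 2 (edgeR adjusted p = 0.0532) or replicate 3 (0.116) left out, and with *Prep*-/- M0 replicate 1 (0.109) or replicate 3 (0.106) left out. The M2 call was lost when *Prep*+/- M2 replicate 1, 2 or 3 was left out (edgeR adjusted p = 0.0726, 0.053 and 0.0743), without *Prep*-/- M2 replicate 1 (0.149) or replicate 2 (0.13), and with the compared libraries alone (0.097). Without *Prep*-/- M2 replicate 3 it was larger, at -1.27 (edgeR adjusted p = 3.72e-04).

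*Itgb1*, which encodes the β1 chain shared by α4, α6, αv and many other α chains, was lower with the knockout in M0. It was 511, 565 and 647 CPM in *Prep*+/- and 379.7, 389 and 339.9 CPM in *Prep*-/- libraries, a clear gap, with a log2 fold change of -0.64 (SE 0.12, edgeR adjusted p = 5.02e-04). The adjusted p stayed under the threshold, but the change fell under 1.5-fold without *Prep*+/- M0 replicate 3 (-0.56) or *Prep*-/- M0 replicate 3 (-0.58). In M1 it was 675, 627 and 662 CPM against 516, 577 and 584 CPM, lower in each *Prep*-/- library (log2 fold change -0.23, edgeR adjusted p = 0.151). In M2 it was 637, 659 and 658 CPM against 491, 502 and 671 CPM, where *Prep*-/- replicate 3 was the highest of the 6 libraries (log2 fold change -0.23, edgeR adjusted p = 0.182).

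*Itgav*, which encodes the αv chain of receptors for vitronectin and for latent TGF-β, was lower with the knockout in M0. The values were 60.6, 81.4 and 83.3 CPM in *Prep*+/- and 36.4, 35.3 and 32.5 CPM in *Prep*-/- libraries, with a log2 fold change of -1.11 (SE 0.23, edgeR adjusted p = 8.36e-04) and no overlap. The call held under every alternative. In M1 the libraries had 75.1, 68.5 and 71.8 CPM against 48.7, 56.1 and 52.2 CPM, lower in every *Prep*-/- library (log2 fold change -0.46, edgeR adjusted p = 0.124). In M2 they had 46.8, 40.1 and 49.5 CPM against 22.0, 22.2 and 49.6 CPM. *Prep*-/- replicate 3 was again at the *Prep*+/- level, and the log2 fold change was -0.54 (edgeR adjusted p = 0.0973) with it and -1.04 (edgeR adjusted p = 4.27e-05) without it.

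*Itgb5*, which encodes the β5 partner of αv, did not pass the test between genotypes. It was 257, 258 and 237 CPM against 330.3, 284 and 264 CPM in M0, and 97.6, 97.4 and 99.3 CPM against 125, 119 and 109 CPM in M1. Every *Prep*-/- library was higher in these states (log2 fold change 0.22, edgeR adjusted p = 0.109 in M0, and 0.26, edgeR adjusted p = 0.0789 in M1). In M2 it was 155, 167 and 123 CPM against 172, 156 and 167 CPM, and the ranges overlapped.

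In counts, 1 of the 10 genes was called higher and 4 lower with the knockout in M0, against 15.4% higher and 17.2% lower of all genes tested. In M1, 1 was called higher and 2 lower, against 12.3% and 10.2% of all genes. In M2, 0 were called higher and 3 lower, against 6.37% and 9.82%. Beside the count of 0, 3 genes were higher at an unadjusted edgeR p under 0.05, and DESeq2 also called 0. For M0, M1 and M2 the median log2 fold change of the 10 genes was -0.51, -0.12 and -0.34, and that of all genes tested was 0.02, 0.04 and 0.03.

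**Figure D2:**
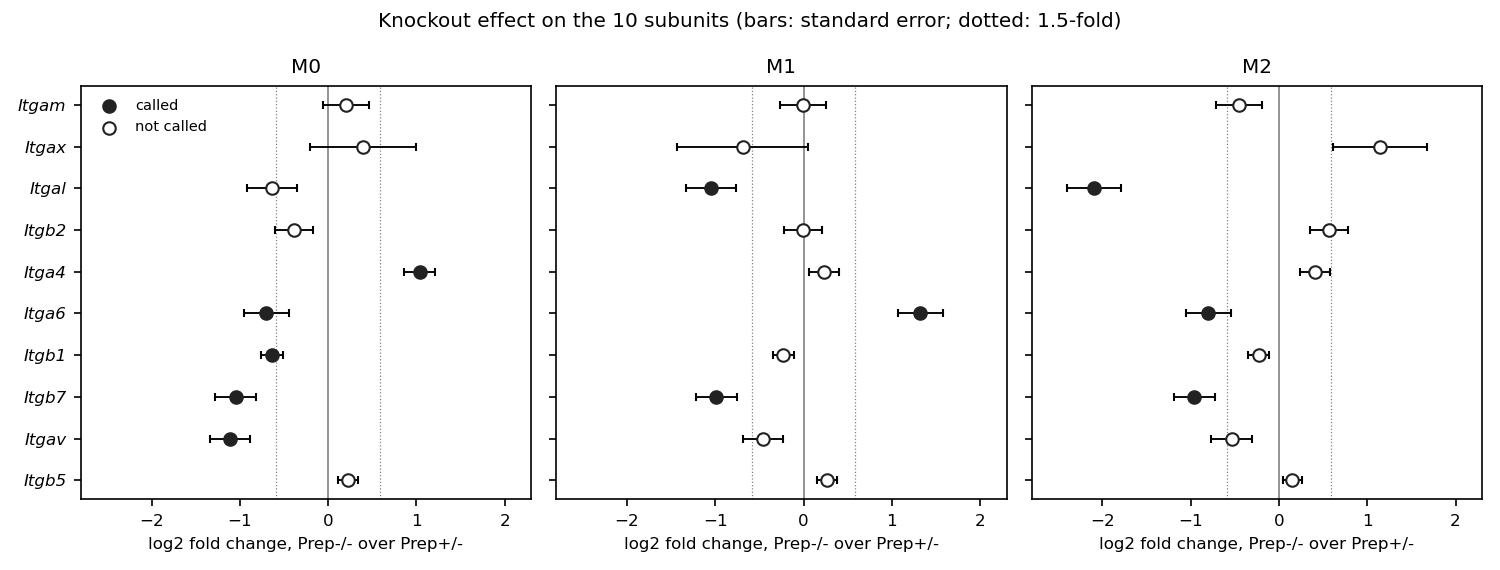
Log2 fold change of *Prep*-/- over *Prep*+/- (horizontal axis) for each subunit in M0, M1 and M2, with bars for the standard error, dotted lines at 1.5-fold, filled points for genes called and open points for those not called. *Itgb7* is near -1 in each state, *Itgal* reaches -2.10 in M2, and *Itga6* changes side between M1 and the other states.

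The difference between knockout effects was tested directly as an interaction. Between M1 and M0, 1 gene was called higher and 1 lower, against 12.0% and 9.15% of all genes. *Itga6* had an effect of 1.32 in M1 and -0.70 in M0, a difference of 2.02 (SE 0.36, edgeR adjusted p = 9.81e-04). *Itga4* had an effect of 0.23 in M1 and 1.04 in M0, a difference of -0.80 (SE 0.24, edgeR adjusted p = 0.0244), which was lost in 7 of 18 alternatives. Between M2 and M0, 0 genes were called higher and 1 lower, against 4.53% and 4.13%. *Itgal* had a difference of -1.46 (SE 0.42, edgeR adjusted p = 0.0374), which was lost in 10 of 18 alternatives. That of *Itgb2* was 0.95 (edgeR adjusted p = 0.0581) and passed in DESeq2, so that DESeq2 called 1 gene higher, and 2 were higher at an unadjusted edgeR p under 0.05. Between M2 and M1, 0 were called higher and 1 lower, against 4.58% and 7.35%, with 0 higher at an unadjusted edgeR p under 0.05 and 0 by DESeq2. *Itga6* had a difference of -2.12 (SE 0.37, edgeR adjusted p = 0.00178). Both differences of *Itga6* held under every alternative.

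Single libraries decided several of the other differences. The *Itga4* call between M1 and M0 was lost without *Prep*+/- M0 replicate 1 (edgeR adjusted p = 0.0516) or 2 (0.0610), *Prep*+/- M1 replicate 1 (0.0586), *Prep*-/- M0 replicate 1 (0.0558) or 2 (0.0548), or *Prep*-/- M1 replicate 1 (0.0624). The *Itgal* call between M2 and M0 was lost when *Prep*+/- M0 replicate 1, 2 or 3 was left out (edgeR adjusted p = 0.0648, 0.0678 and 0.0762), *Prep*+/- M2 replicate 1 or 2 (0.0777 and 0.0885), *Prep*-/- M0 replicate 1 or 2 (0.0813 and 0.0678) or *Prep*-/- M2 replicate 1 or 3 (0.0717 and 0.0876). Other genes passed only when a library was left out. Without *Prep*-/- M2 replicate 3, *Itgam* had a difference of -1.10 between M2 and M0 (edgeR adjusted p = 0.0308) and of -0.89 between M2 and M1 (edgeR adjusted p = 0.045). *Itgb2* passed between M2 and M0 without *Prep*-/- M2 replicate 1 (1.10, edgeR adjusted p = 0.035) or 2 (1.13, edgeR adjusted p = 0.0166). *Itgal* passed between M2 and M1 without *Prep*-/- M2 replicate 2 (-1.45, edgeR adjusted p = 0.0206), and *Itga4* between M2 and M0 without *Prep*-/- M0 replicate 3 (-0.84, edgeR adjusted p = 0.0115).

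**Figure D3:**
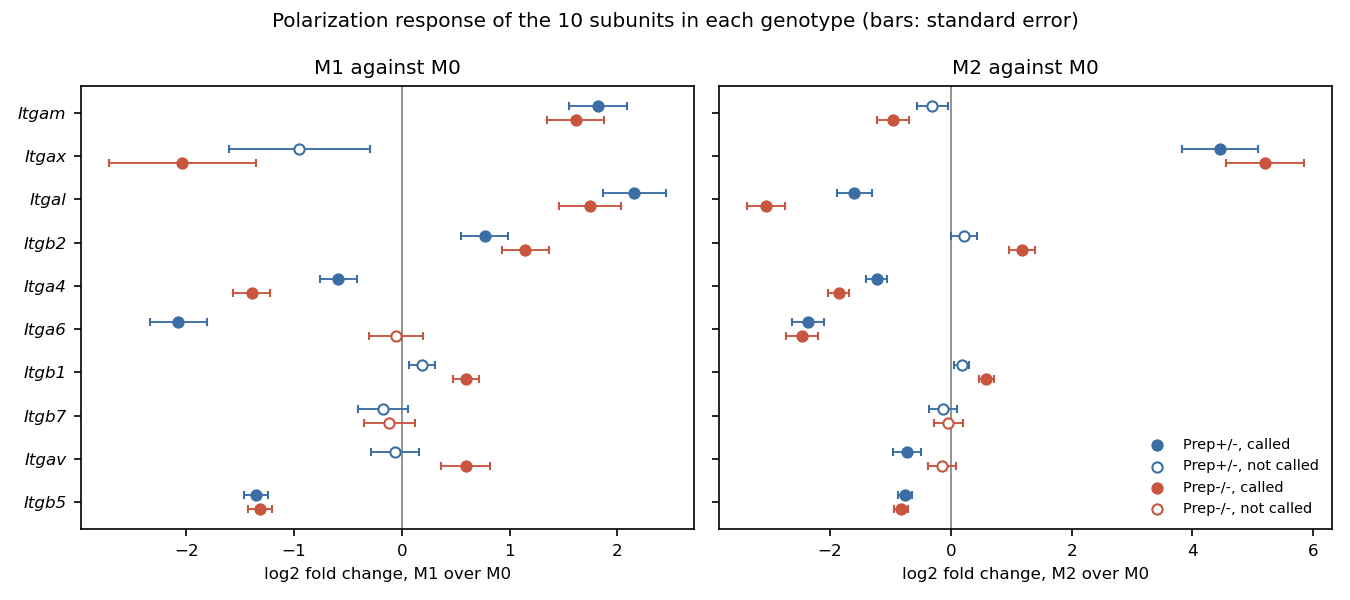
Log2 fold change of M1 over M0 (left) and of M2 over M0 (right) for each subunit, in *Prep*+/- (blue) and *Prep*-/- (red) BMDMs, with bars for the standard error, filled points for genes called and open points for those not called. *Itgam* and *Itgal* lie to the right in M1, *Itgax* lies far to the right in M2, and *Itga6* in M1 lies at -2.07 in *Prep*+/- and -0.05 in *Prep*-/- cells.

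LPS raised the β2 chains of both genotypes other than *Itgax*. From M0 to M1, *Itgam* rose by 1.82 in *Prep*+/- (edgeR adjusted p = 2.55e-05) and 1.61 in *Prep*-/- cells (edgeR adjusted p = 7.49e-05) on the log2 scale. *Itgal* rose by 2.16 (edgeR adjusted p = 1.07e-05) and 1.75 (edgeR adjusted p = 7.96e-05). *Itgb2* rose by 0.77 (edgeR adjusted p = 0.00684) and 1.15 (edgeR adjusted p = 2.87e-04). For all 3 genes the M1 libraries lay above every M0 library of their genotype. *Itgb5* fell in both, by 1.35 in *Prep*+/- (edgeR adjusted p = 5.95e-08) and 1.31 in *Prep*-/- (edgeR adjusted p = 8.62e-08). *Itga4* fell by 0.59 in *Prep*+/- (edgeR adjusted p = 0.00872), just past 1.5-fold and under it in 7 of 12 alternatives, among them those without *Prep*+/- M0 replicate 3 (-0.48), *Prep*+/- M1 replicate 2 (-0.51) or replicate 3 (-0.57), and by 1.39 in *Prep*-/- (edgeR adjusted p = 4.45e-06). *Itga6* fell by 2.07 in *Prep*+/- cells (edgeR adjusted p = 5.25e-06), from a mean of 213 to 50.6 CPM. In *Prep*-/- cells the means were 131 and 127 CPM and the log2 fold change was -0.05 (edgeR adjusted p = 0.875).

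The other calls in M1 against M0 were made in *Prep*-/- cells. *Itgb1* rose by 0.60 (edgeR adjusted p = 5.67e-04) and *Itgav* by 0.59 (edgeR adjusted p = 0.0356). With the compared libraries alone and a replicate block, the log2 fold changes were 0.56 for both (edgeR adjusted p = 0.0104 and 0.00723). That is under 1.5-fold, so that neither was called in that fit. Same-numbered libraries deviated together in this comparison, but no label pairs them. *Itgb1* was also under 1.5-fold without *Prep*-/- M0 replicate 3 (0.54) or *Prep*-/- M1 replicate 2 (0.57) or 3 (0.56). *Itgav* missed the threshold when *Prep*-/- M0 replicate 1, 2 or 3 was left out (edgeR adjusted p = 0.0575, 0.0606 and 0.0875) or *Prep*-/- M1 replicate 2 or 3 (0.0944 and 0.0694). *Itgax* fell by 2.04 (edgeR adjusted p = 0.0177) at levels near or under 12 CPM, with an overlap of the ranges, and 4 of the 6 libraries ended this call when left out: *Prep*-/- M0 replicate 1 (edgeR adjusted p = 0.0504) or 3 (0.0785), and *Prep*-/- M1 replicate 1 (0.0547) or 2 (0.0725). In all, 3 genes were higher and 3 lower in *Prep*+/- cells, against 16.7% and 20.9% of all genes, and 5 were higher and 3 lower in *Prep*-/- cells, against 20.9% and 21.0%. The 5 were 3 with the replicate block.

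IL-4 with IL-13 raised *Itgax* in both genotypes and lowered *Itgal*, *Itga4*, *Itga6* and *Itgb5*. From M0 to M2, *Itgax* rose by 4.45 on the log2 scale in *Prep*+/- (edgeR adjusted p = 7.58e-05) and by 5.20 in *Prep*-/- (edgeR adjusted p = 7.79e-06), or by 4.36 without *Prep*-/- M2 replicate 3 (edgeR adjusted p = 6.73e-06). *Itgal* fell by 1.60 in *Prep*+/- (edgeR adjusted p = 8.46e-04) and 3.06 in *Prep*-/- cells (edgeR adjusted p = 1.15e-06). *Itga4* fell by 1.23 (edgeR adjusted p = 8.3e-05) and 1.86 (edgeR adjusted p = 4.25e-07). *Itga6* fell by 2.37 (edgeR adjusted p = 6.79e-06) and 2.46 (edgeR adjusted p = 2.01e-06), and *Itgb5* by 0.76 (edgeR adjusted p = 1.35e-04) and 0.83 (edgeR adjusted p = 2.1e-05). All the M2 libraries lay outside the M0 range of their genotype for these 5 genes. In all, 1 gene was higher and 5 were lower in *Prep*+/- cells, against 6.09% and 6.77% of all genes, and 3 were higher and 5 lower in *Prep*-/- cells, against 14.7% and 15.5%.

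The remaining M2 calls were made in a single genotype and were less stable. *Itgb2* rose by 1.17 in *Prep*-/- cells (edgeR adjusted p = 3.76e-04), or by 0.78 without *Prep*-/- M2 replicate 3 (edgeR adjusted p = 9.34e-04), and the log2 fold change in *Prep*+/- cells was 0.22 (edgeR adjusted p = 0.528). The *Itgb2* call in *Prep*-/- cells was lost in 1 of 12 alternatives, the compared libraries alone with a replicate block (edgeR adjusted p = 0.0701). *Itgb1* rose by 0.59 in *Prep*-/- cells (edgeR adjusted p = 0.00104), and was under 1.5-fold without *Prep*-/- M2 replicate 3 (0.43) or *Prep*-/- M0 replicate 3 (0.53). *Itgam* fell by 0.96 in *Prep*-/- cells (edgeR adjusted p = 0.00698) with an overlap of the ranges, or by 1.40 without replicate 3 (edgeR adjusted p = 1.28e-04). The *Itgam* call was lost in 2 of 12 alternatives, among them the compared libraries alone (edgeR adjusted p = 0.0718). *Itgav* fell by 0.72 in *Prep*+/- cells (edgeR adjusted p = 0.0342), and this call was lost without *Prep*+/- M0 replicate 2 (edgeR adjusted p = 0.104) or 3 (0.117) and without *Prep*+/- M2 replicate 1, 2 or 3 (0.0809, 0.123 and 0.0574). In *Prep*-/- cells the log2 fold change of *Itgav* was -0.15 (edgeR adjusted p = 0.625), and -0.65 (edgeR adjusted p = 0.00123) without *Prep*-/- M2 replicate 3.

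The order of the group means differed from gene to gene. *Itgal* had the fewest overlaps between neighbours, with means of 435 CPM in *Prep*+/- M1, 210.0 in *Prep*-/- M1, 97.5 in *Prep*+/- M0, 62.6 in *Prep*-/- M0, 32.1 in *Prep*+/- M2 and 7.52 in *Prep*-/- M2, and the only neighbours whose libraries overlapped were *Prep*-/- M0 and *Prep*+/- M2. *Itgb5* ran from 293 CPM in *Prep*-/- M0 to 98.1 in *Prep*+/- M1, with the M0 groups above the M2 groups and these above the M1 groups, and the neighbours among *Prep*-/- M2, *Prep*+/- M2 and *Prep*-/- M1 overlapped. *Itga4* was highest in *Prep*-/- M0 (219 CPM) and lowest in *Prep*+/- M2 (45.5 CPM). *Itgb1* varied least: its means lay between 555 and 655 CPM in 5 groups whose neighbours all overlapped, and at 369.7 CPM in *Prep*-/- M0, below them. *Itgb7* fell into a pair of levels, the *Prep*+/- groups and the *Prep*-/- groups, with overlapping neighbours inside each.

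Per kilobase of merged exons, which allows levels of different genes to be compared, *Itgb2*, *Itgam* and *Itgb1* were the highest of the 10 in every group but *Prep*-/- M2, where *Itgax* (63.8 ± 49.3) was above *Itgam* (51.7 ± 23.8). In *Prep*+/- M0 the level was 179 ± 18.9 CPM per kilobase for *Itgb2*, 96.2 ± 11.4 for *Itgb1* and 87.6 ± 15.5 for *Itgam* (SD, n = 3). It was 35.5 ± 1.71 for *Itgb5*, 29.1 ± 3.48 for *Itgb7*, 18.7 ± 3.72 for *Itga6* and 14.8 ± 1.62 for *Itgal*. *Itga4*, *Itgav* and *Itgax* had the lowest levels, at 6.38 ± 0.709, 6.09 ± 1.02 and 1.31 ± 0.867 CPM per kilobase. In *Prep*-/- M0 the level of *Itga4* was 13.1 ± 3.52, close to that of *Itgb7* (14.1 ± 2.15) and *Itga6* (11.5 ± 3.67). The longest transcript taken as the length in place of merged exons raised *Itga4* in *Prep*+/- M0 to 10.7 and *Itga6* to 30.7 CPM per kilobase, so that levels of genes within that factor of each other have no fixed order.

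At the mRNA level, the shares of the α chains that pair with CD18 differed between states and between genotypes in these libraries. The level per kilobase of *Itgam*, *Itgal*, *Itgax* and *Itgad* (the CD11d chain) was summed in each library, and each gene's share taken. In M0 and M1, *Itgam* made up most of the sum: 84.3% ± 1.14 in *Prep*+/- M0, 89.9% ± 0.364 in *Prep*-/- M0, and for M1 82.0% ± 2.14 in *Prep*+/- and 90.6% ± 1.28 in *Prep*-/- cells (SD, n = 3). The *Itgal* share was 14.4% ± 1.76 against 8.24% ± 1.49 in M0, 17.8% (16.2% to 20.2%) against 9.26% (7.84% to 10.4%) in M1, and 4.72% ± 0.946 against 1.31% ± 0.951 in M2. In each state the lowest *Prep*+/- library had a higher *Itgal* share than any *Prep*-/- library. *Itgax* made up 27.3% ± 4.44 of the sum in *Prep*+/- M2 (24.7% to 32.5%) and 51.5% ± 9.33 in *Prep*-/- M2 (41.6% to 60.1%), and no more than 3.19% in any M0 or M1 library. The M2 shares did not overlap, although the *Itgax* levels did, and *Itgam* was lowest in the *Prep*-/- M2 libraries with the lower *Itgax*. *Itgad* was at most 0.269% of any library's sum. With 3 libraries a group an exact permutation test cannot go below 0.10, so none was run, and a stretch of 758 bases is 95.0% identical between *Itgax* and *Itgad*.

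**Figure D4:**
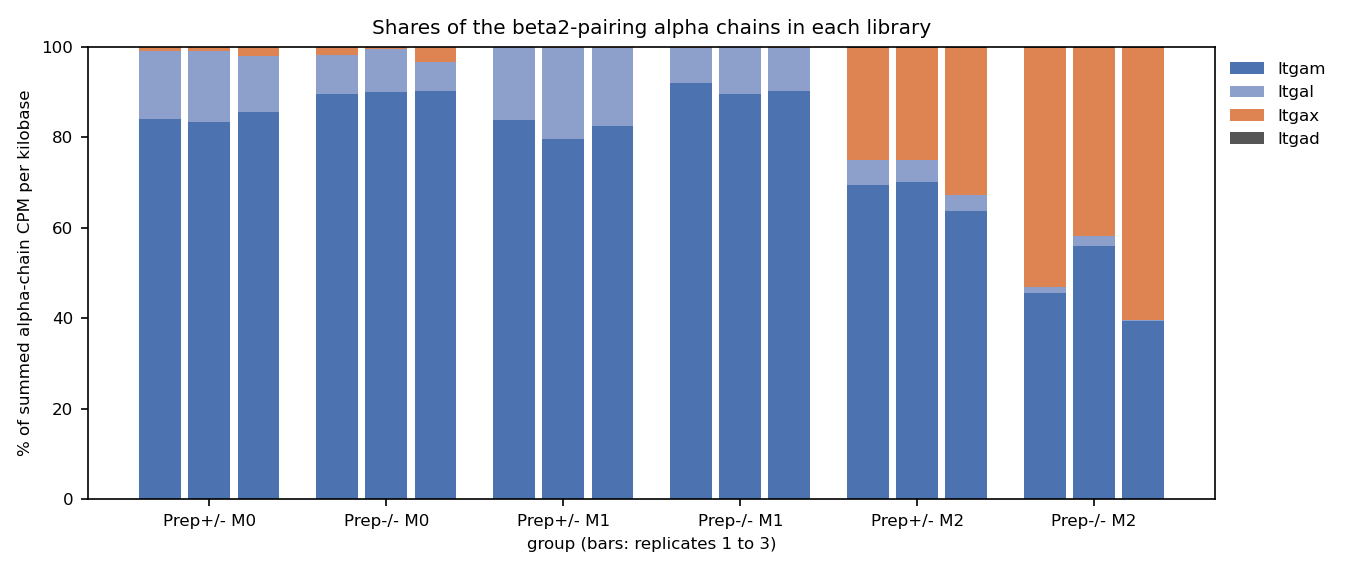
Share of each β2-pairing α chain in the summed CPM per kilobase of *Itgam*, *Itgal*, *Itgax* and *Itgad* (vertical axis, percent), as a stacked bar for each of the 18 libraries, in replicate order within the 6 groups. *Itgax* takes 24.7% to 32.5% in *Prep*+/- M2 and 41.6% to 60.1% in *Prep*-/- M2, and *Itgad* is too small to be seen.

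The genes whose pattern was most like each subunit were sought among 9601 genes by Pearson's r of log2 CPM over the 18 libraries. This is a description, and the libraries share 6 group means that drive it. *Itgal* was most like *Trpm2* (0.980) and *Mgat4a* (0.966), and *Itgam* was most like *Jade2* (0.970) and *Pik3ap1* (0.965). *Itgax* was most like *Ado* (0.974) and *Atp6v0a1* (0.972), *Itgb2* like *Slc12a4* (0.981) and *Sec63* (0.979), and *Itgb1* like *Tars* and *Abce1* (both 0.983). *Itga4* was most like *Rnf150* (0.957) and *Slc45a4* (0.953), *Itga6* like *Map3k9* (0.943) and *Fam102a* (0.937), and *Itgav* like *Pdk1* (0.957) and *Fmnl3* (0.949). *Itgb5* was most like *Zfyve28* (0.963) and *Patz1* (0.960), and *Itgb7* like *Park7* (0.943) and *Nqo2* (0.903). Among the 10 genes themselves, r was 0.878 for *Itgam* with *Itgal*, -0.886 for *Itgax* with *Itgal*, -0.763 for *Itgam* with *Itgax* and 0.710 for *Itgb2* with *Itgb1*.

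Of 16 other integrin subunits, 10 were tested. The knockout raised 2 and lowered 2 of them in M0 (median log2 fold change 0.31), raised 1 and lowered 2 in M1 (median -0.13), and raised 2 and lowered 1 in M2 (median 0.19). The M0 counts stand against 15.4% higher and 17.2% lower of all genes tested, the M1 counts against 12.3% and 10.2%, and those of M2 against 6.37% and 9.82%. With 1 library left out, the M1 counts ranged from 0 to 1 higher (0 without *Prep*+/- M1 replicate 2 or 3 or *Prep*-/- M1 replicate 1 or 2) and from 1 to 2 lower (1 without replicate 1 or 3 of either genotype). The M2 count higher was 1 without *Prep*+/- M2 replicate 1, 2 or 3 or *Prep*-/- M2 replicate 3. *Itga8*, an αv-like chain that binds nephronectin, was 17.0, 20.1 and 24.7 CPM in *Prep*+/- M0 and 0.901, 3.89 and 2.49 CPM in *Prep*-/- M0, which was -3.07 on the log2 scale (edgeR adjusted p = 1.2e-05). The M1 level was lower too (-1.02, edgeR adjusted p = 0.041), a call lost without *Prep*+/- M1 replicate 1 (0.122) or 3 (0.0866) or *Prep*-/- M1 replicate 1 (0.176) or 3 (0.0597). *Itga5*, the α chain of the fibronectin receptor, was 86.0, 106 and 112 CPM against 64.3, 62.5 and 53.3 CPM in M0 (log2 fold change -0.75, edgeR adjusted p = 3.52e-04). *Itgb3*, the other common partner of αv, was 7.93, 8.05 and 9.26 CPM against 10.6, 11.7 and 17.3 CPM in M0 (0.65, edgeR adjusted p = 0.00768), and was under 1.5-fold without *Prep*-/- M0 replicate 3 (0.41). *Itga9*, a relative of α4, was 3.62, 3.82 and 3.21 CPM against 0.855, 0.800 and 1.01 CPM in M2 (-1.99, edgeR adjusted p = 1.96e-05).

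Of 34 ligands and counter-receptors of integrins, 33 were in the table and 21 were tested. The knockout raised 3 and lowered 6 of them in M0 (median -0.33), raised 0 and lowered 3 in M1 (median -0.21), and raised 4 and lowered 2 in M2 (median -0.34). These are to be read against the same shares of all genes (15.4% and 17.2%, 12.3% and 10.2%, 6.37% and 9.82%). The count lower was 2 in M0 without *Prep*+/- M0 replicate 3 and 6 in M2 without *Prep*-/- M2 replicate 3, and 1 was called higher in M1 without *Prep*+/- M1 replicate 1. Beside the edgeR count of 0 in M1, 1 was higher at an unadjusted p under 0.05, and DESeq2 called 0. *Thbs1*, thrombospondin, a matrix protein that binds αv and β1 integrins, was 10.9, 5.25 and 11.7 CPM in *Prep*+/- M0 and 347, 206 and 140.0 CPM in *Prep*-/- M0 (log2 fold change 4.63, edgeR adjusted p = 1.57e-07). It was higher in M2 as well, with 3.28, 4.82 and 3.21 CPM against 17.7, 16.5 and 14.7 CPM (2.11, edgeR adjusted p = 2.31e-04). In M1 it was lower, with 815, 749 and 772 CPM against 236, 200.1 and 302 CPM (-1.66, edgeR adjusted p = 5.86e-04). *Spp1*, osteopontin, was 4202, 4626 and 5152 CPM against 773, 1022 and 2254 CPM in M0 (-1.79, edgeR adjusted p = 0.00123). *Tgfb1*, whose latent form is bound by αv integrins, was 411, 438 and 419.8 CPM against 207, 252 and 279 CPM in M1 (-0.78, edgeR adjusted p = 2.51e-04), and *Fn1*, fibronectin, had a log2 fold change of -1.74 in M1 at under 6 CPM (edgeR adjusted p = 0.0158), lost without *Prep*-/- M1 replicate 1 (0.0710) or 3 (0.0570). *C3*, the complement component whose fragment binds CD11b and CD11c, was 13.2, 20.8 and 14.6 CPM against 71.3, 66.8 and 46.3 CPM in M2 (1.93, edgeR adjusted p = 0.00547). *Cdh1*, E-cadherin, a ligand of αEβ7, was 26.9, 23.6 and 27.4 CPM against 2.62, 3.45 and 15.8 CPM in M2 (-1.83, edgeR adjusted p = 0.00878). In M0 it was under 1 CPM throughout (-2.31, edgeR adjusted p = 0.0436), a call lost whichever of the 6 libraries was left out (0.0607 to 0.113). The M2 call of *Cdh1* was lost with the compared libraries alone (0.0755), and was larger without *Prep*-/- M2 replicate 3 (-3.10, edgeR adjusted p = 1.74e-06).

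Of 56 genes of integrin activation, adaptors and signalling, 53 were in the table and 51 were tested. The knockout raised 5 and lowered 9 of them in M0 (median 0.16), raised 2 and lowered 3 in M1 (median -0.12), and raised 6 and lowered 4 in M2 (median 0.11), against the same shares of all genes (15.4% and 17.2%, 12.3% and 10.2%, 6.37% and 9.82%). The M1 count higher was 0 without *Prep*+/- M1 replicate 2 or 3 or *Prep*-/- M1 replicate 1, and 4 without *Prep*+/- M1 replicate 1 or *Prep*-/- M1 replicate 2. In M2 the count higher was 2 without *Prep*+/- M2 replicate 1, and the count lower was 2 without *Prep*-/- M2 replicate 1 and 10 without *Prep*-/- M2 replicate 3. Among members called in M0 without overlap between genotypes and with a mean of at least 5 CPM, the 3 largest changes were lower. The list was chosen for roles in integrin function, so that the roles of these genes are not a result. *Flna*, filamin A, which binds β tails, was 897, 982 and 1114 CPM in *Prep*+/- and 411, 424 and 394 CPM in *Prep*-/- M0 libraries (log2 fold change -1.28, edgeR adjusted p = 2.55e-04). *Ptk2*, focal adhesion kinase, was 12.7, 17.4 and 20.4 CPM against 6.40, 6.40 and 5.21 CPM (-1.48, edgeR adjusted p = 7.33e-04), and *Actn4*, α-actinin, was 214, 249 and 286 CPM against 111, 122 and 87.3 CPM (-1.23, edgeR adjusted p = 4.78e-05). In M1, *Plaur*, the urokinase receptor, was 164, 221 and 214 CPM against 26.0, 34.8 and 53.9 CPM (-2.38, edgeR adjusted p = 0.0033). *Cytip* (-0.93, edgeR adjusted p = 0.00867) and *Flna* (-0.67, edgeR adjusted p = 0.0286) were also lower in M1, the call of *Flna* being lost without *Prep*+/- M1 replicate 1 (0.0837) or 3 (0.0573) or *Prep*-/- M1 replicate 1 (0.134) or 3 (0.0592). In M2, *Zyx*, zyxin of focal adhesions, was 171, 181 and 197 CPM against 405, 393 and 433 CPM (1.16, edgeR adjusted p = 1.99e-04). *Cd81*, a tetraspanin that associates with α4β1, was 113, 136 and 115 CPM against 53.6, 57.7 and 74.5 CPM in M2 (-0.97, edgeR adjusted p = 8.49e-05), and *Filip1l* was lower (-1.25, edgeR adjusted p = 0.0182), a call lost without *Prep*-/- M2 replicate 1 (0.0780) or 2 (0.0505).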

How the data were processed

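Poly-A mRNA of 18 BMDM cultures was measured by paired-end bulk RNA-seq. The authors trimmed reads with Trimmomatic 0.36, aligned them with HISAT2 2.2.1.0 to GRCm39 and counted them with stringtie2. They deposited raw counts for 16314 gene symbols, with no normalization. The annotation release, the strand setting and the treatment of reads that match several genes are not given in the sources used here. Every count column matched 1 sample label (0 left unmapped), and groups and replicate numbers came from the labels. Totals were 19068237 to 22598279 counts. Standard errors were derived as the absolute log2 fold change divided by the square root of the F statistic of the edgeR test. They cover the spread between libraries. In no group did replicates differ by as little as sampling noise.

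Genes were kept with filterByExpr (12021 genes) and scaled by TMM (factors 0.818 to 1.20). All 18 libraries were fitted in R 4.3.3 by the quasi-likelihood method of edgeR 4.0.16 (with limma 3.58.1) with 1 coefficient per group and Benjamini-Hochberg adjustment over all genes tested. A gene was called where the fold change exceeded 1.5 and the adjusted p was under 0.05. Higher and lower mean *Prep*-/- relative to *Prep*+/-, or M1 or M2 relative to M0. Over 10 comparisons, the interactions test the difference of knockout effects between states. On simulated counts for 12021 genes with 200 changed in the M0 knockout comparison, 86% of 2-fold and 98% of 3-fold changes were recovered and 4.17% of calls were false.

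Alternatives were DESeq2 1.42.0 (Wald test), RLE size factors, no expression filter, only the compared libraries with and without a replicate block, no fold criterion, leaving out each compared library, and the longest transcript as length. Same-numbered libraries deviated together, with correlations of 0.249 to 0.462 in the M2 knockout comparison and 0.169 to 0.259 in M1 against M0 in *Prep*-/- cells, so the numbers were taken to pair the libraries there. This rests on the correlations alone, and differently numbered libraries were not compared. In the M0 knockout comparison the correlations were -0.315 to -0.0393. In the M2 knockout comparison the block changed no call among the 10 genes.

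The 10 genes were named in full. From 3 gene lists (other subunits, ligands, and activation and signalling), at most the 3 genes with the largest change per knockout comparison were named, among called genes whose libraries did not overlap between genotypes and whose mean over all 18 libraries was 5 CPM or more, which a gene can reach through groups outside the comparison. For each of the 10 genes, the 2 genes with the highest Pearson's r of log2 CPM (prior count 2) were named. The 10 genes and the lists were chosen with earlier results of these data known. Positions and lengths are from the GENCODE annotation of GRCm39, which may not be the authors' release, and near-identical stretches were sought with blastn 2.17.0 (at least 150 bases and 90% identity). Promoters are from RefSeq (GRCm38.p6), with the 50 bases after the start left out. Python 3.11.15 with matplotlib 3.10.9 drew the figures.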

Additional observations from a re-analysis of the deposited data

Results flagged for a closer look

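Over the 3 interactions, the knockout effect of 3 of the 10 genes was called different between states (edgeR's quasi-likelihood test of the difference itself). Of all genes, 12.0% were called higher and 9.15% lower between M1 and M0. The shares were 4.53% and 4.13% between M2 and M0, and 4.58% and 7.35% between M2 and M1. *Itga6* differed by 2.02 between M1 and M0 (log2 scale, edgeR adjusted p = 9.81e-04) and by -2.12 between M2 and M1 (edgeR adjusted p = 0.00178), and all 3 *Prep*-/- M1 libraries were above and all 3 *Prep*-/- M2 libraries below the *Prep*+/- libraries of their state. *Itga4* differed by -0.80 between M1 and M0 (edgeR adjusted p = 0.0244). This call was lost in 7 of 18 alternatives, at edgeR adjusted p from 0.0516 to 0.0624 where 1 library was left out. *Itgal* differed by -1.46 between M2 and M0 (edgeR adjusted p = 0.0374). That call was lost in 10 of 18 alternatives, at edgeR adjusted p from 0.0648 to 0.0885 where 1 library was left out.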

How the results depend on the processing

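Over 100 results of the 10 genes, the call of 73 never changed and that of 27 changed under at least 1 alternative. Of 1380 alternative values, 71 lost and 18 gained a call, and none reversed a call. The sign changed in 47 values called in neither fit. Genes called higher in M1 against M0 in *Prep*-/- cells were 5, and 3 with DESeq2, with RLE size factors, with the compared libraries alone and with these plus a replicate block. With the replicate block, genes higher in M2 against M0 in *Prep*-/- cells were 1 in place of 3. The interaction of M1 against M0 had 2 genes higher in place of 1 with the compared libraries alone, with or without the replicate block, and 0 lower in place of 1 with the block. The interaction of M2 against M0 had 1 higher in place of 0 with DESeq2 and 0 lower in place of 1 with the compared libraries alone. The interaction of M2 against M1 had 1 higher in place of 0 and 2 lower in place of 1 with the replicate block. The block gave *Itgax* in M1 against M0 in *Prep*+/- cells a log2 change of -0.84 (edgeR adjusted p = 0.018), which was not called without it. Outside the M2 knockout comparison and M1 against M0 in *Prep*-/- cells, same-numbered libraries had correlations down to -0.349. No label pairs the numbers in any comparison. The cause of these changes was not tested.

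With 1 library left out, genes called lower ranged from 2 to 5 in M0, 1 to 2 in M1 and 2 to 5 in M2 for the knockout, and from 0 to 1, 0 to 2 and 1 to 2 for the interactions of M1 against M0, M2 against M0 and M2 against M1. Genes called higher ranged from 3 to 5 in M1 against M0 in *Prep*-/- cells, and from 0 to 1 for the knockout in M2 and for the interaction of M2 against M0. Over all genes, the interaction of M2 against M0 had 545 higher and 496 lower, 249 and 306 with the compared libraries alone, 304 higher with the block, and 268 to 832 and 238 to 617 with 1 library left out. Genes lower in M2 against M0 in *Prep*-/- cells were 1869, and 1128 with the block. Genes lower with the knockout in M1 were 1224, and 754 without *Prep*-/- M1 replicate 1. The interaction of M2 against M1 had 551 higher, and 355 to 680 with 1 library left out. With no fold criterion, the knockout had 2922 in place of 1848 higher in M0, 2372 in place of 1476 higher and 1998 in place of 1224 lower in M1, and 1394 in place of 766 higher in M2. M2 against M0 had 1124 in place of 732 higher in *Prep*+/- and 2657 in place of 1767 in *Prep*-/- cells. For the 3 gene lists in the knockout comparisons, DESeq2 gave 0 in place of 1 other subunits higher in M1 and 2 in place of 1 lower in M2, 5 in place of 3 ligands lower in M1, and 1 in place of 2 signalling genes higher and 5 in place of 3 lower in M1. Counting depth limits *Itgax* in M0 and M1, where a library held 21 to 280 reads.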
